A study of Mus musculus with 2 samples.

Results

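Lyve1-high capillary lymphatic endothelial cells were selected from single-cell RNA-seq libraries of mesenteric CD31+ cells of mice at postnatal day 8, by a rule on raw counts of unique molecular identifiers (UMIs, each standing for 1 captured mRNA molecule). A cell was kept when it had at least 2000 UMIs, a mitochondrial share of at most 10%, at least 1 UMI of the endothelial cadherin Cdh5, at most 2 UMIs of the proliferation genes Mki67 and Top2a together, at least 4 of the 6 lymphatic genes Prox1, Flt4, Mmrn1, Reln, Pdpn and Ccl21a, at least 4 UMIs of Lyve1, and at most 1 UMI of the lymph node sinus genes Marco, Ackr4 and Stab2 together. In all, 136 of 11273 cells met the rule. These were 26 of 6814 cells of the control library and 110 of 4459 cells of the Flcn iΔEC library.

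Flcn encodes folliculin, and the Flcn iΔEC mice carried floxed Flcn alleles and a tamoxifen-inducible Cre under the endothelial Cdh5 promoter (Cdh5-BAC-CreERT2). The sample is labelled KO, and the control genotype is not given in the sources used here. Mice of both groups were C57BL/6 and received 40 µg of 4-hydroxytamoxifen under the skin at postnatal days 2, 3.5, 5 and 6.5. CD31+ cells were captured on magnetic beads and the cells of 3 mice were pooled into 1 library per group, so no result here has a replicate, a standard error or a p-value. Every interval covers counting error only, at 95%, and animal, library and genotype cannot be told apart.

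Blind-ended lymphatic capillaries take up fluid, lipid and leukocytes from the tissue and pass them to collecting vessels, which carry valves. Capillary lymphatic endothelial cells are known for high levels of the hyaluronan receptor Lyve1 and of the chemokine Ccl21a, which draws dendritic cells into the vessel, whereas collecting vessels are known for low Lyve1 and for valve genes such as Foxc2 and Gja4. Folliculin, on the lysosome surface, promotes phosphorylation of the MiT/TFE transcription factors Tfe3 and Tfeb and so keeps them in the cytoplasm. In the nucleus these factors bind E-boxes with the core CACGTG in the promoters of lysosomal genes.

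The libraries held 64639756 UMIs (control) and 60805779 UMIs (Flcn iΔEC). The pools differed in sex-linked transcripts. The member cells of the control library held 0 UMIs of Xist and 116 UMIs of Y-linked genes, and those of the Flcn iΔEC library held 2604 UMIs of Xist, found in all 110 cells, and 0 of Y-linked genes, so sex and genotype cannot be told apart. The libraries shared 6 cell barcodes, none of them a member. A doublet caller marked 142 control cells (2.08%) and 37 Flcn iΔEC cells (0.830%), of which 1 control cell was a member. The median control member had 15801.5 UMIs (lowest 3982, highest 51323) from 4274 genes, and the median Flcn iΔEC member 25804 UMIs (lowest 5282, highest 136417) from 5187.5 genes. The Flcn iΔEC members were thus the deeper cells, and summed to 3142005 UMIs against 506890. Flcn itself had 9 UMIs in the control members and 27 in the Flcn iΔEC members, or 17.8 and 8.59 CPM (counts per 1000000 UMIs), a ratio of 0.484 (0.221 to 1.17). The libraries read the 3′ end of transcripts, so this level does not check the deletion.

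**Figure D1:**
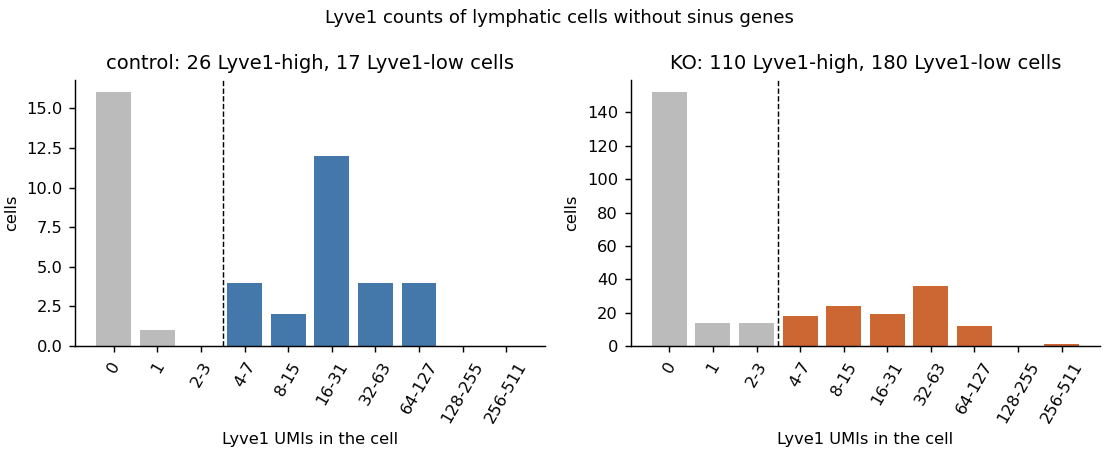
Number of lymphatic cells without sinus genes (y axis) per bin of Lyve1 UMIs per cell (x axis) in the control and Flcn iΔEC libraries, with the threshold of 4 UMIs as a dashed line. Few cells lie beside the threshold: 1 control cell and 28 Flcn iΔEC cells had 1 to 3 UMIs.

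Among lymphatic cells without sinus genes, most cells had either no Lyve1 UMI or at least 4. Lyve1 stood at 0 in 16 control cells (37.2%) and 152 Flcn iΔEC cells (52.4%). Just below the threshold, 1 control cell had 1 UMI and none had 2 or 3, and 14, 8 and 6 Flcn iΔEC cells had 1, 2 and 3 UMIs. Just inside it, 1 control cell and 7 Flcn iΔEC cells had exactly 4 UMIs. Control members ranged from 4 to 94 Lyve1 UMIs (median 22.5) and Flcn iΔEC members from 4 to 314 (median 26.5), and 8 and 40 of them had at least 40.

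Lyve1-high cells made up a like share of all lymphatic cells of both libraries, but not of the lymphatic cells without sinus genes. The lymphatic gate, which is the same rule without its Lyve1 and sinus terms, held 75 of 682 Cdh5-positive cells of the control library (11%, 8.75 to 13.6%) and 328 of 977 of the Flcn iΔEC library (33.6%, 30.6 to 36.6%). Of these, the Lyve1-high cells were 34.7% (24.0 to 46.5%) for control and 33.5% (28.4 to 38.9%) for Flcn iΔEC. The Lyve1-low cells, with at most 3 Lyve1 UMIs and the same limit on sinus genes, were 17 (22.7%, 13.8 to 33.8%) and 180 (54.9%, 49.3 to 60.4%). The cells with sinus genes were 32 (42.7%, 31.3 to 54.6%) and 38 (11.6%, 8.33 to 15.5%). Of the lymphatic cells without sinus genes, the Lyve1-high cells were 26 of 43 in the control and 110 of 290 in the Flcn iΔEC library. The median depth of the lymphatic gate was 16305 UMIs in the control and 24076 UMIs in the Flcn iΔEC library. The gate needed only 1 UMI of each of 4 lymphatic genes, so deep cells could enter on traces. For example, 1 Lyve1-low Flcn iΔEC cell of 46369 UMIs held 2 of Prox1, 4 of Reln and 1 each of Flt4, Mmrn1 and Ccl21a. Among the members, 1 Flcn iΔEC cell of 111288 UMIs held 3 of Flt4, 8 of Ccl21a and 1 each of Prox1, Mmrn1, Reln and Pdpn. Whether venous cells were among the Lyve1-low cells was not tested. With cells thinned to 10000 UMIs before the rule, and shallower cells left out, the Lyve1-high shares were 36.5% and 31.6%. Of all Cdh5-positive cells, members were 3.81% (2.51 to 5.54%) for control and 11.3% (9.35 to 13.4%) for Flcn iΔEC.

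The proliferation limit removed cells from both libraries. Of the cells that met every other term, 7 of 33 control cells (21.2%, 8.98 to 38.9%) and 16 of 126 Flcn iΔEC cells (12.7%, 7.44 to 19.8%) had more than 2 UMIs of Mki67 and Top2a, and these intervals overlap. The removed cells were deep, with medians of 42302 and 46681 UMIs. Among the Lyve1-low cells 1 of 18 and 20 of 200 exceeded the limit (5.56% and 10.0%).

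The genes of the rule describe the members and are not findings about them. Lyve1 (chr7:110850607-110863239, minus strand) stood at 1616 CPM of the summed counts in the control members (1507 to 1730) and at 1220 CPM in the Flcn iΔEC members (1182 to 1259), a ratio of 0.755 (0.700 to 0.815). Single control members ran from 235 to 7662 CPM with a median of 1572, and Flcn iΔEC members from 68.0 to 6197 with a median of 1033, so the cells of the libraries overlapped widely. Prox1 (chr1:190118035-190170714, minus strand), the transcription factor that sets lymphatic identity, had 509 CPM in the control members and 330 in the Flcn iΔEC members, a ratio of 0.649 (0.566 to 0.747). Reln, the secreted glycoprotein reelin, had a ratio of 0.665 (0.580 to 0.765), and Flt4, which encodes the receptor VEGFR3, of 0.844 (0.743 to 0.962). The ratios of Mmrn1, which encodes multimerin 1, and of Pdpn, the membrane protein podoplanin, were 1.02 (0.936 to 1.11) and 1.05 (0.837 to 1.32), with intervals on either side of 1. All 6 lymphatic genes were found in 22 of 26 control members (84.6%) and 81 of 110 Flcn iΔEC members (73.6%).

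Ccl21a (chr4:42772860-42773993, minus strand) was close to level in the summed counts of the members and apart in the other cells. It had 8331 CPM in the control members and 7665 CPM in the Flcn iΔEC members, a ratio of 0.920 (0.890 to 0.951). Single cells varied widely, from 0 to 665 UMIs in control members and from 0 to 3196 in Flcn iΔEC members. Summed per cell over 21 leukocyte traffic genes, a list that includes Ccl21a, the medians were 10110 CPM (control) and 6231 CPM (Flcn iΔEC). The pooled sums of that list were closer, at 9503 and 8551 CPM. In Lyve1-low cells Ccl21a had 330 and 2910 CPM, and in cells with sinus genes 202 and 3225 CPM. In blood endothelial cells it had 4.20 and 98.5 CPM, and each time the level was higher in the Flcn iΔEC library. The blood endothelial cells were gated on at most 1 of the 6 lymphatic genes. In leukocytes, which should lack Ccl21a, it had 4.74 CPM in the control and 15.3 CPM in the Flcn iΔEC library, a ratio of 3.22, and the part of RNA free in the droplets was not tested. The gene has near-identical copies, and apart from the row used, Ccl21b held 6 and 35 UMIs and a further Ccl21a row 0 and 1 in the members, against 4223 and 24085.

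**Figure D2:**
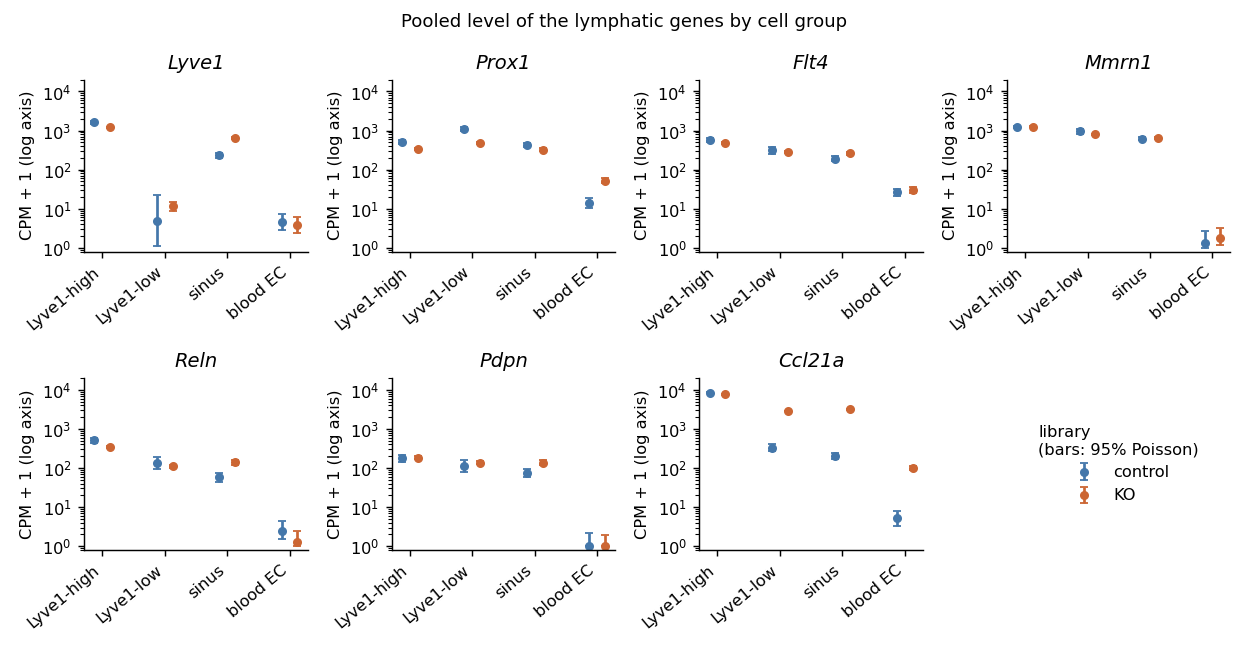
CPM + 1 of summed counts (y axis, log scale, with 95% Poisson intervals for counting error) of Lyve1 and the 6 lymphatic genes in Lyve1-high, Lyve1-low, sinus-gene and blood endothelial cells of both libraries. Ccl21a stands at 8331 and 7665 CPM in the Lyve1-high cells of the control and Flcn iΔEC libraries and at 330 against 2910 CPM in the Lyve1-low cells.

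Markers outside the rule were read to check the label. Of 10 capillary lymphatic genes outside the rule, 8 had at least 50 counts over Lyve1-high and Lyve1-low cells in each library, and 5 of these 8 were higher in the Lyve1-high cells of both, as were 25.2% of all 2782 genes compared. The exception in size was Ptx3, the soluble pattern receptor pentraxin 3, at 211 CPM in Lyve1-high and 26.6 in Lyve1-low control cells and at 85.6 and 7.68 CPM in Flcn iΔEC cells. Mrc1, the mannose receptor, was too low for that minimum, with 78.9 and 0 CPM in the control library and 35.3 and 2.85 CPM in the Flcn iΔEC library. Of 16 collecting vessel and valve genes, 13 could be compared and 10 were lower in the Lyve1-high cells of both libraries, with median log2 ratios of −0.91 (control) and −0.60 (Flcn iΔEC). Of all genes compared 38.6% were lower in both, and the all-gene medians were −0.07 and −0.05. All 136 cells carry the label by the rule, and the genes outside the rule differed mostly by less than 2-fold. A few members differed from the rest. Madcam1, an adhesion molecule on the sinus gene list, had UMIs in 2 control members (16 in all) and 3 Flcn iΔEC members (53 in all, 48 of them in 1 cell). That 1 cell was the member of 111288 UMIs with traces of the lymphatic genes named above. The cells without any UMI of Fgl2, which was found in all other members, were 2 control cells and 1 Flcn iΔEC cell, and each of them held Madcam1. These 5 cells were kept, and list medians and calls that change direction without them are given with both values.

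Of the markers of other cell types, macrophage genes summed to 9.86 CPM in the control and 9.55 CPM in the Flcn iΔEC members, with 7 and 5 of 8 genes at 0. Fibroblast and mesothelial genes summed to 19.7 and 9.23 CPM (6 and 3 of 9 at 0) and smooth muscle genes to 1.97 and 1.91 CPM (6 and 5 of 7 at 0). Lymphocyte genes were present. The 8 T cell genes summed to 166 CPM in the control and 49.0 CPM in the Flcn iΔEC members, and the 6 B cell genes to 282 and 116 CPM, with 1 T cell gene, Cd8a, at 0 in the control members and none otherwise. At least 1 UMI of Ptprc, Cd79a or Cd3e, which mark leukocytes, was found in 4 of 26 control members (15.4%) and 29 of 110 Flcn iΔEC members (26.4%). All 29 UMIs of Cd79a in the control members came from 1 cell, the cell marked as a doublet.

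To describe how the members differed between the libraries, UMIs were summed over the members of each library and scaled to CPM, and 1 count was added before the log2 ratio was taken. Of 7253 genes with at least 50 counts over both sums, 266 were at least 2-fold higher in the Flcn iΔEC members (3.67%) and 489 at least 2-fold lower (6.74%). The median log2 ratio of all these genes was −0.19, and with that median set to 0 by scaling the counts were 379 higher and 287 lower. With 0.5 counts added instead of 1 they were 300 higher and 463 lower. The split between directions thus depends on the scaling and on the added count. The shares of all genes, 3.67% higher and 6.74% lower, are the background for each list compared between the libraries below. Ratios below are not shifted by the median of −0.19. The genes farthest above it were Gdf15, Apoe and Lrrn4cl, and reported MiT/TFE target genes stood higher as a list, whereas Gja4, Igf1 and Efnb2 were among the lowest.

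**Figure D3:**
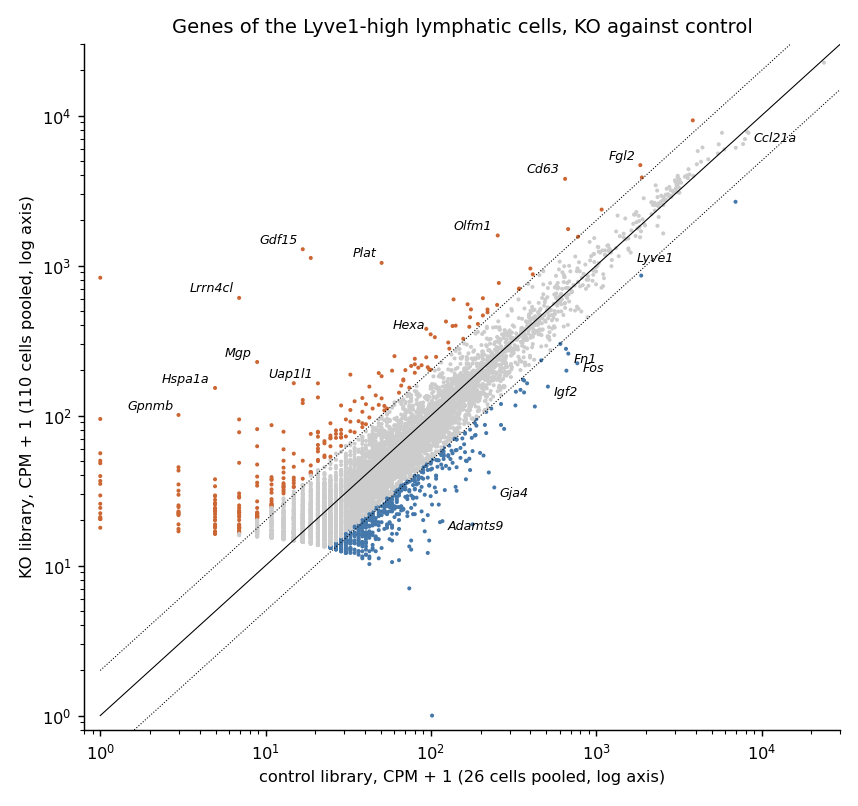
CPM + 1 in the summed Lyve1-high cells of the Flcn iΔEC library (y axis, log scale) against the control library (x axis, log scale) for 7253 genes, with dotted lines at 2-fold. Gdf15 and Lrrn4cl lie far above the upper line and Gja4 lies below the lower line, while Lyve1 and Ccl21a lie between the lines.

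Lrrn4cl (chr19:8850768-8853909, plus strand) had 608 CPM in the Flcn iΔEC members and 5.92 CPM, or 3 UMIs, in the control members, a ratio of 103 (35.1 to 498). Per cell its median was 538 CPM with a highest value of 4461 in the Flcn iΔEC library, against a median of 0 and a highest value of 98.9 in the control library. In the Lyve1-low cells the ratio was 22.1.

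Gdf15 (chr8:70629393-70632456, minus strand), a secreted stress cytokine of the TGF-beta family, had 4035 UMIs in the Flcn iΔEC members and 8 in the control members. Its levels were 1284 and 15.8 CPM, a ratio of 81.4 (41.3 to 189). Per cell it had a median of 882 CPM (0 to 6565) in the Flcn iΔEC members and a median of 0 (0 to 219) in the control members. With every cell thinned to 5000 UMIs, which left out 1 shallower control member, Gdf15 was found in 80.9% of Flcn iΔEC members (72.3 to 87.8%) and 4.00% of control members (0.101 to 20.3%). Without thinning the shares were 94.5% and 11.5%. In thinned leukocytes of the same libraries, at median depths of 8264 and 7516 UMIs before thinning, the shares were 2.61% and 0.0934%. The ratio was not particular to the members, at 86.5 in Lyve1-low cells and 77.2 in blood endothelial cells.

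Apoe, the lipid carrier apolipoprotein E, had 1123 CPM in the Flcn iΔEC members and 17.8 in the control members, a ratio of 63.2 (33.3 to 138). Its per-cell median was 1123 CPM in the Flcn iΔEC members and 0 in the control members, whose highest cell had 251. The ratio was 6.37 in blood endothelial cells and 1.18 in leukocytes. In Lyve1-low cells it was 9.37, at 1637 and 175 CPM, but 1 control cell held 33 of the 46 control UMIs (71.7%), and without that cell the control level was 51.5 CPM and the ratio 31.8.

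The other genes among the 10 highest ratios with at least 100 CPM in 1 library were Hspa1a, Mgp, Plat, Ccdc3, Uap1l1, Pgf and Olfm1. Plat, the tissue plasminogen activator, had 1041 and 49.3 CPM, a ratio of 21.1 (14.3 to 32.7), and a per-cell median of 652 CPM against 0. Olfm1, the secreted protein olfactomedin 1, had 1586 and 253 CPM, a ratio of 6.28 (5.27 to 7.55), and was found in all 110 Flcn iΔEC members and 88.5% of control members. Pgf, placental growth factor, had 120 and 15.8 CPM. Uap1l1 had 163 and 19.7 CPM in the members and a ratio of 1.01 in leukocytes. For Mgp, matrix Gla protein, 1 Flcn iΔEC cell held 63.6% of the counts. Hspa1a, an inducible heat shock protein, had a ratio of 38.5 (10.6 to 319) in the members and 38.1 in leukocytes, at 1252 and 32.9 CPM there. This last difference was thus as large in cells outside the endothelium.

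The 10 lowest ratios by the same minimum were those of Fibin, Gja4, Adamts9, Jam3, Igf1, Itm2a, Fry, Gap43, Efnb2 and Coro1a. Gja4 (chr4:127311421-127314039, minus strand), the gap junction protein connexin 37 of lymphatic valves and arteries, had 32.1 CPM in the Flcn iΔEC and 241 CPM in the control members, a ratio of 0.134 (0.102 to 0.175). It was found in 26.4% of the deeper Flcn iΔEC cells and 84.6% of control cells. In Lyve1-low cells its levels were 85.1 and 634 CPM, again a ratio of 0.134, and in blood endothelial cells the ratio was 1.15. Efnb2, the ligand ephrin-B2, had 32.5 and 140 CPM, a ratio of 0.232 (0.170 to 0.318). Igf1, insulin-like growth factor 1, had 40.7 and 223 CPM, a ratio of 0.183 (0.141 to 0.237), and a ratio of 0.0163 in Lyve1-low cells. Fibin had 17.8 and 178 CPM, and 31.1% of its control counts came from 1 cell. Jam3, a junctional adhesion molecule, had 18.5 and 112 CPM, with 42.1% of its control counts in 1 cell. Coro1a, a leukocyte actin regulator, had 24.5 and 101 CPM, and its log2 ratio moved from −2.05 to −1.22 when cells with UMIs of Ptprc, Cd79a or Cd3e were left out.

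Of 29 reported MiT/TFE target genes, 26 could be compared in the members. Of these, 12 were at least 2-fold higher in the Flcn iΔEC members and 0 at least 2-fold lower, beside 3.67% and 6.74% of all genes. The median log2 ratio of the list was 0.88 beside −0.19 for all genes, and 23 of the 26 lay above 0. Their counts summed to 11740 CPM in the Flcn iΔEC and 4437 CPM in the control members. This difference was not particular to the members. The sums were 12720 and 3698 CPM in Lyve1-low cells and 8406 and 3433 CPM in cells with sinus genes. In blood endothelial cells they were 5799 and 2685 CPM, and in leukocytes 1392 and 1285 CPM. The list was chosen with earlier results of these data known and is not independent evidence of its direction.

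Cd63, a tetraspanin of late endosomes and lysosomes, had 3783 CPM in the Flcn iΔEC and 647 CPM in the control members, a ratio of 5.85 (5.24 to 6.54). Single Flcn iΔEC members ran from 296 to 8986 CPM with a median of 3770, and control members from 0 to 2233 with a median of 581, so the ranges overlapped while the Flcn iΔEC median lay above the highest control cell. Lamp1, a main protein of the lysosome membrane, had 954 and 398 CPM, a ratio of 2.40 (2.08 to 2.78), with per-cell medians of 910 (244 to 1895) and 390 (143 to 722). Among lysosomal enzymes, the ratios were 3.52 (2.65 to 4.77) for Hexa, a subunit of beta-hexosaminidase, 2.56 (1.49 to 4.76) for the sialidase Neu1, and 2.43 (1.76 to 3.44) for Ctsa, cathepsin A. The protease Ctsd, cathepsin D, had 1556 and 775 CPM, a ratio of 2.01 (1.81 to 2.23), at the edge of the 2-fold call. Gla, an enzyme that breaks down glycolipids, had a ratio of 2.35 (1.10 to 5.99).

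Other targets were near 0 in the control members. Gpnmb (chr6:49036546-49070929, plus strand), a membrane glycoprotein induced by lysosomal stress, had 314 UMIs in the Flcn iΔEC members and 1 in the control members, a ratio of 50.7 (9.03 to 2007). Ppargc1a, the coactivator PGC-1 alpha, had 154 and 0 UMIs, at least 8.28-fold higher against a floor of 3 counts in the summed control members. Rragd, the GTPase RagD, had 68 and 1 UMIs, a ratio of 11 (1.90 to 440). Sqstm1, the autophagy receptor p62, was below the 2-fold call at 1.83 (1.39 to 2.45). The lowest in the list were Uvrag and Wipi1, autophagy genes, with ratios of 0.508 and 0.513. Of the regulators themselves, Tfe3 had a ratio of 0.909 and Tfeb of 0.513 on low counts. In leukocytes the ratios of Lamp1, Ctsd, Ctsa and Hexa were 1.02, 1.08, 0.949 and 1.06, and that of Cd63 was 3.47 at 21.1 and 6.08 CPM.

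The promoters of 3 targets that hold the E-box core CACGTG more than once are shown. Gla and Mcoln1 also hold it more than once and are not shown. The windows are RefSeq sequence of build GRCm38.p6, from 250 bases before to 50 bases after an annotated transcript start, with CACGTG in capitals. The first is that of Lamp1 (chr8:13158911-13159210, plus strand), the second that of Ctsd (chr7:142387778-142388077, minus strand) and the third the second of 2 start sites of Ctsa (chr2:164833523-164833822, plus strand).
Lamp1: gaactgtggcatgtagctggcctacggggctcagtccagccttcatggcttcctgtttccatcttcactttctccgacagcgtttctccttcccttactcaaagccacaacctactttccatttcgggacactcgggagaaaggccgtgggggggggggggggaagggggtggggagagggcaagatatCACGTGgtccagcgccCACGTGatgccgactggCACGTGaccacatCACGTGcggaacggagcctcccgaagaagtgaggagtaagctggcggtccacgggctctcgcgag
Ctsd: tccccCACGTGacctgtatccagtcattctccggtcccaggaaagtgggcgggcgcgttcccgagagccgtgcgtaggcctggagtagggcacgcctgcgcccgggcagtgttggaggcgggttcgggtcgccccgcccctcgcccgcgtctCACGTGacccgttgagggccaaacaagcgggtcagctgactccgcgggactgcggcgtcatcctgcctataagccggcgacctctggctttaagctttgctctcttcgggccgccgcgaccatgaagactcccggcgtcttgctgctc
Ctsa: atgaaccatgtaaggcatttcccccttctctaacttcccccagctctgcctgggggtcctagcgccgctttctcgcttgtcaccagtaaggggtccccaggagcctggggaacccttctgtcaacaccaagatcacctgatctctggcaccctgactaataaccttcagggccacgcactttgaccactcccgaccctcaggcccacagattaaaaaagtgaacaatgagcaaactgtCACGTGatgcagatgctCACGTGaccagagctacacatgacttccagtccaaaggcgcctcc

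CACGTG is its own reverse complement, so both strands were searched at once. In Lamp1 it began 61, 45, 28 and 15 bases before the start, in Ctsd 245 and 98 bases before, and in Ctsa 12 bases before and 5 bases after. Gla held it 227 and 194 bases before the start and Gdf15 83 bases before its second start. Mcoln1, Atp6v0d1, Atp6v1a and Ctsf also held it and were not called at least 2-fold higher. Cd63, Hexa, Neu1, Gpnmb, Ppargc1a and Rragd were called higher and did not hold it. Of the 29 listed targets 22 had a promoter in the RefSeq table, and 9 of these held CACGTG (40.9%), as did 5 of 11 among the targets at least 2-fold higher in the Flcn iΔEC members (45.5%). The same letters stood in 7.15% of all 32851 promoter windows of that length, in 12.7% of the compared genes (713 of 5614 matched), in 13.2% of the genes at least 2-fold higher (27 of 204) and in 10.2% of those at least 2-fold lower (37 of 364). The longer TCACGTG on either strand, which overlaps CACGTG, stood in 7 of the 22 targets (31.8%), in 7.91% of the compared genes, in 10.3% of the higher and in 4.12% of the lower genes. A match is a description of the letters and not of binding.

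**Figure D4:**
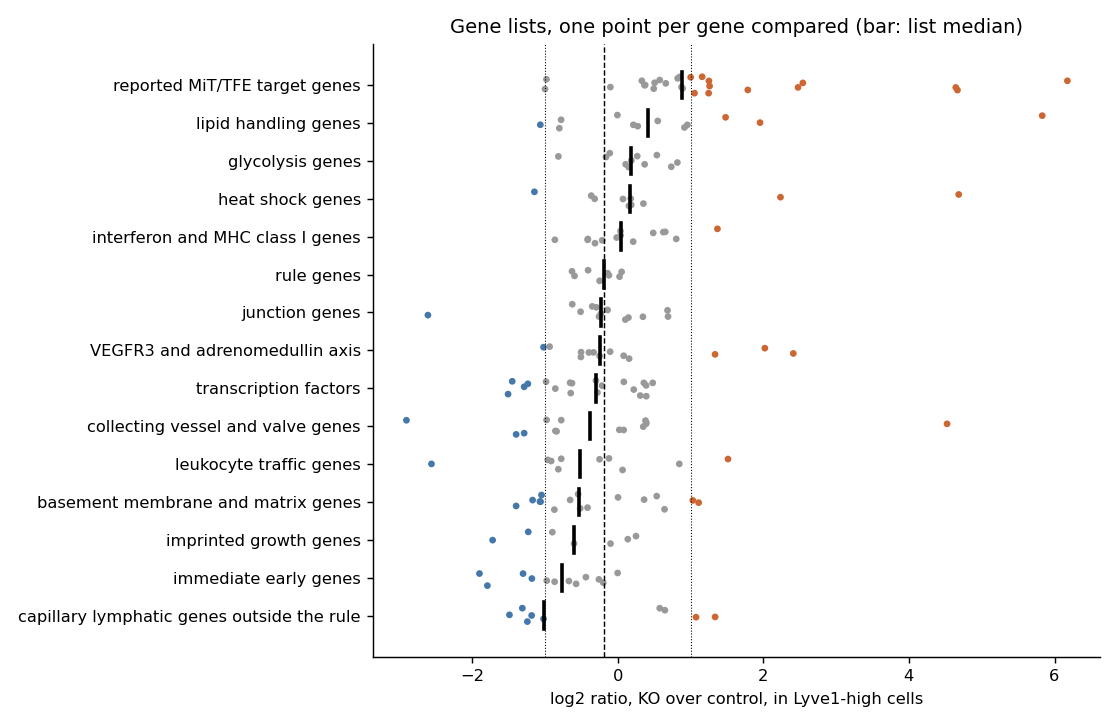
Log2 ratio of Flcn iΔEC over control in Lyve1-high cells (x axis) for each gene compared in 15 gene lists (y axis), with a black bar at each list median, a dashed line at the median of all genes (−0.19) and dotted lines at 2-fold. Of the lists drawn, which leave out 12 of the 27 lists, among them the markers of other cell types, the MiT/TFE target list has the highest median (0.88) and the capillary list the lowest (−1.02, or 0.07 without the 5 cells that held Madcam1).

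Of the capillary lymphatic genes outside the rule, 9 of 10 could be compared, with a median log2 ratio of −1.02. In the Flcn iΔEC members 2 genes were at least 2-fold higher and 5 at least 2-fold lower, beside 3.67% and 6.74% of all genes. The higher were Fgl2, a secreted fibrinogen-like protein, at 4672 and 1847 CPM, a ratio of 2.53 (2.37 to 2.71), and Timp2, a metalloproteinase inhibitor, at 873 and 412 CPM. The lower were Stab1, a scavenger receptor, at 278 and 655 CPM, a ratio of 0.424 (0.373 to 0.482), Nrp2, the co-receptor of VEGFR3, at 300 and 606 CPM (0.494, 0.434 to 0.564), Ptx3 at 0.406, Mrc1 at 0.448 and Tmem176b at 0.358. For Tmem176b, 1 cell held 52.4% of the control counts and 1 cell 45.9% of the Flcn iΔEC counts. Stab1 and Nrp2 were lower in the Lyve1-low cells as well, with ratios of 0.305 and 0.211. Without the 5 cells that held Madcam1, 1 gene was higher and 4 were lower, the log2 ratio of Tmem176b was 0.07 instead of −1.49 and the list median 0.07 instead of −1.02, while Ptx3, Stab1, Mrc1 and Nrp2 stayed at least 2-fold lower. The list thus did not move together, and its median rests on few cells.

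Among 14 of 16 collecting vessel and valve genes that could be compared, the median log2 ratio was −0.38. Besides Gja4, Fn1, which encodes fibronectin, was lower at 258 and 677 CPM, a ratio of 0.381 (0.335 to 0.433), and so was Foxc2, a transcription factor of valves, at 36.9 and 88.8 CPM (0.416, 0.292 to 0.601). Mgp was higher, with most of its counts in 1 cell. Cldn11, a tight junction claudin of valves, had 105 and 80.9 CPM, a ratio of 1.30 (0.940 to 1.85), and the 10 genes within 2-fold included Gata2 (1.37) and Klf2 (1.31).

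Of 20 transcription factors, 19 could be compared, with 0 at least 2-fold higher and 4 at least 2-fold lower, beside 3.67% and 6.74% of all genes, and a median log2 ratio of −0.30. The lower were Nr2f1, Hhex, Foxc2 and Erg, with ratios of 0.361 (0.212 to 0.636), 0.369 (0.272 to 0.506), 0.416 and 0.430 (0.310 to 0.606). Sox18, which acts before Prox1 in lymphatic specification, stood at 0.554 (0.472 to 0.652) and Nr2f2, the venous factor COUP-TFII, at 0.816 (0.707 to 0.946). In the VEGFR3 and adrenomedullin axis, 13 of 20 genes could be compared and the median was −0.25. Of these, 3 were higher and 1 was lower, beside 3.67% and 6.74% of all genes. Angpt2, the ligand angiopoietin 2, had 248 and 59.2 CPM, a ratio of 4.19 (2.91 to 6.25), and in Lyve1-low cells a ratio of 1.89. Ackr3, a scavenger receptor that binds adrenomedullin, had 129 and 49.3 CPM (2.62, 1.75 to 4.10). Flt1, the receptor VEGFR1, had 65 and 1 UMIs. The receptor Kdr stood at 0.763 (0.661 to 0.883), and Nrp2 was the gene at least 2-fold lower.

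Junction genes stayed near the median of all genes, with 0 of 13 at least 2-fold higher, Jam3 lower and a median log2 ratio of −0.23. Cldn5, the main endothelial claudin, had 1840 and 2344 CPM, a ratio of 0.785 (0.737 to 0.836). Of 21 leukocyte traffic genes 10 could be compared, with a median of −0.51. Sema3a, a secreted guidance protein, was higher at 78.6 and 25.6 CPM, and Ccl2, a monocyte chemokine, was lower at 39 UMIs against 37 in the much smaller control sum, a ratio of 0.170 (0.106 to 0.274). Of 16 matrix genes compared, 2 were higher and 5 were lower, beside 3.67% and 6.74% of all genes, and the median was −0.53. The lower included the basement membrane genes Nid2 and Hspg2 at 0.452 (0.312 to 0.665) and 0.491 (0.351 to 0.698). Eln, which encodes elastin, was higher at 698 and 339 CPM, but 1 Flcn iΔEC cell held 55.8% of its counts and the log2 ratio was 0.05 without each library's richest cell.

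Of 12 lipid genes compared, 3 were at least 2-fold higher and 1 at least 2-fold lower, beside 3.67% and 6.74% of all genes, and the median log2 ratio was 0.41 beside −0.19. Besides Apoe, the lipid droplet protein Plin2 had 191 and 47.4 CPM, a ratio of 4.03 (2.68 to 6.34), and Lpl, lipoprotein lipase, 397 and 140 CPM, a ratio of 2.83 (2.23 to 3.65). The fatty acid carrier Fabp4 had 1356 and 1166 CPM in the members, a ratio of 1.16 (1.07 to 1.27), and 426 and 2498 CPM in Lyve1-low cells, a ratio of 0.171. Of 7 imprinted growth genes compared, Igf2, insulin-like growth factor 2, was lower at 155 and 509 CPM, a ratio of 0.304 (0.261 to 0.355), and Mest at 163 and 381 CPM (0.428, 0.362 to 0.508). With cells thinned to 10000 UMIs before the rule the log2 ratio of Mest was −0.68 instead of −1.23. H19, from the same locus as Igf2, stood at 0.661 (0.602 to 0.727), and the list median was −0.60.

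A comparison within each library, where animals, sex and handling are shared, set the Lyve1-high against the Lyve1-low cells. Of 2782 genes outside the rule with at least 50 counts over the cell groups in each library, 12 were at least 2-fold higher in the Lyve1-high cells of both libraries (0.431%) and 21 at least 2-fold lower in both (0.755%). The higher were Ptx3, Cd36, Mest, Tril, Pcsk6, Chst15, Ctsd, Adgrg3 and the MHC class II genes H2-Ab1, H2-Aa, H2-Eb1 and Cd74. The lower included Cldn11, Gja4, Anxa1, Slc41a1, Plat, Stmn1 and Sbspon. The control side rested on 26 and 17 cells, which limits its precision.

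**Figure D5:**
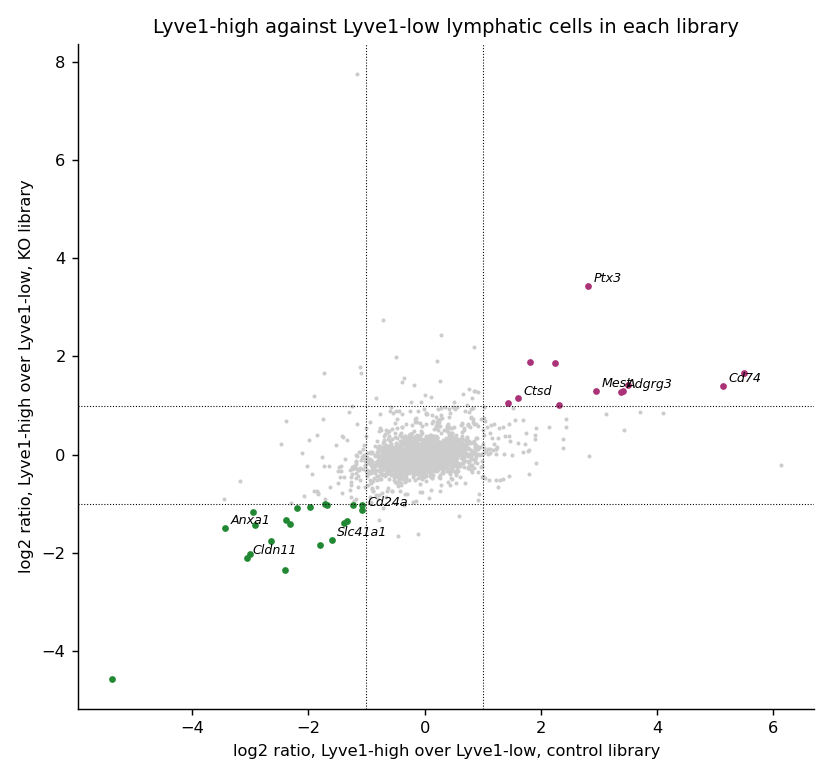
Log2 ratio of Lyve1-high over Lyve1-low cells in the Flcn iΔEC library (y axis) against the control library (x axis) for 2782 genes, with dotted lines at 2-fold. The 12 genes higher in both libraries (purple, upper right) include Ptx3, Mest and Ctsd, and the 21 lower in both (green, lower left) include Cldn11 and Anxa1.

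Mest, an imprinted gene, had 381 CPM in Lyve1-high and 45.6 CPM in Lyve1-low control cells, and 163 and 66.0 CPM in Flcn iΔEC cells, log2 ratios of 2.96 and 1.30. Adgrg3, an adhesion G protein-coupled receptor, had 195 and 15.2 CPM in the control and 136 and 56.2 CPM in the Flcn iΔEC library. Pcsk6, a secreted proprotein convertase, had 142 and 26.6 CPM and then 44.2 and 12.1 CPM. Ctsd had 775 and 251 CPM in the control and 1556 and 702 CPM in the Flcn iΔEC library, so that it was higher in Lyve1-high cells of each library and higher in the Flcn iΔEC library in each cell group. Cd36, a fatty acid transporter, had 264 and 94.9 CPM and then 153 and 73.1 CPM, and the smaller of its log2 ratios was 0.36 instead of 1.06 with cells thinned before the rule. Further genes of the 10 highest with at least 100 CPM lay below 2-fold in the Flcn iΔEC library, among them Piezo2, a stretch-activated channel, at 162 and 53.2 CPM and then 141 and 72.6 CPM.

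The MHC class II genes, which present antigen and are high in B cells, were carried by few members. Cd74, the invariant chain, had 201 UMIs in 9 of 26 control members, of which 105 (52.2%) were in the cell marked as a doublet that also held all Cd79a. Its levels in Lyve1-high and Lyve1-low cells were 397 and 7.59 CPM in the control and 243 and 91.7 CPM in the Flcn iΔEC library. Without cells holding a UMI of Ptprc, Cd79a or Cd3e these levels were 27.6 and 8.80 CPM, and 9.75 and 15.4 CPM. The excess was therefore not seen in the remaining 81 Flcn iΔEC members. With such cells left out of both groups, 9 genes were higher in both libraries and 8 were lower, instead of 12 and 21. Without cells holding Madcam1 they were 9 and 13.

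Cldn11 (chr3:31149920-31164324, plus strand) had 80.9 CPM in Lyve1-high and 687 in Lyve1-low control cells, and 105 and 451 CPM in Flcn iΔEC cells, log2 ratios of −3.06 and −2.09. Gja4 had the same log2 ratio of −1.39 in both libraries, at 241 and 634 CPM and then 32.1 and 85.1 CPM, although its level differed between libraries. Anxa1, annexin A1, had 41.4 and 463 CPM and then 63 and 178 CPM, with 50.8% of the control Lyve1-low counts in 1 cell. Mfap2, a microfibril protein, had 118 and 592 CPM and then 50.3 and 134 CPM. Stmn1, a microtubule regulator high in dividing cells, had 184 and 592 CPM and then 239 and 488 CPM. Plat had 49.3 and 197 CPM in the control and 1041 and 2168 CPM in the Flcn iΔEC library. Itgb4, the integrin beta 4 chain, had 29.6 and 235 CPM and then 61.7 and 167 CPM. Slc41a1, a magnesium transporter, had 164 and 497 CPM and then 245 and 812 CPM, with 60.2% of its control Lyve1-high counts in 1 cell.

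Transcription factors were lower in the Lyve1-high cells of both libraries for 10 of 13 compared, and none of them by 2-fold in both. The 10 include Prox1, a term of the rule, whereas the share of all genes lower in both, 38.6%, leaves out the genes of the rule. Prox1 had 509 and 1101 CPM in the control and 330 and 486 CPM in the Flcn iΔEC library. Foxc2 had 88.8 and 277 CPM and then 36.9 and 58.8 CPM.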

How the data were processed

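Per the labels and the study's methods, the authors sequenced 10x Chromium 3′ v3 libraries on a HiSeq3000 and aligned them to mm10 with Cell Ranger 3.0, and the deposited matrices hold raw UMI counts per gene and cell. From these counts the rule above was applied to each cell. UMIs were summed over the cells of a group, scaled to CPM, and compared as log2 ratios with 1 count added, for genes with at least 50 counts, calling 2-fold or more. Cells are not replicates and each group is 1 library, so no test was run. Shares have exact Clopper-Pearson intervals, CPM exact Poisson intervals and ratios exact conditional intervals, all at 95% and for counting error only, since UMIs are counted but animals are not.

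Named genes are those of 27 gene lists, and the 10 genes with the highest and the 10 with the lowest ratio where either library reached 100 CPM. For Lyve1-high over Lyve1-low cells the minimum was 100 CPM in 1 cell group of each library, and the smaller of the ratios of the libraries set the order. Sex-linked, mitochondrial, hemoglobin, immunoglobulin and unnamed predicted genes were left out of these rankings. Sbspon, Tril, Pcsk6, Chst15 and the H2 genes fall outside this rule and were named after their values were seen. The member rule and the lists were chosen with earlier results of these data known.

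Doublets were called with Scrublet in scanpy 1.11.5 and kept. Leukocytes were cells with at least 2 UMIs of Ptprc and none of Cdh5. For shares of cells with a UMI, cells were thinned to 5000 UMIs with a fixed seed. Gene positions came from GENCODE vM21 (GRCm38), which held 28339 of 28692 gene identifiers (98.8%), and promoters from RefSeq. Scripts used Python 3.11.15, numpy 2.4.6, scipy 1.17.1 and pandas 2.3.3 and were tested on simulated counts. No column of other samples was present. Some genes of the lists are not reported here.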

Additional observations from a re-analysis of the deposited data

Results flagged for a closer look

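Of 244 listed or named genes compared between libraries in both the Lyve1-high and the Lyve1-low cells, 3 were at least 2-fold apart in opposite directions. Each library is 1 sample, so the differences were not tested. Flt1, the receptor VEGFR1, had a log2 ratio of Flcn iΔEC over control of 2.41 in Lyve1-high cells (65 and 1 UMIs) and −1.10 in Lyve1-low cells (329 and 40 UMIs). For Flt1, 1 cell held 35.4% of the Flcn iΔEC Lyve1-high counts and 1 cell 32.5% of the control Lyve1-low counts. Ccl2, a monocyte chemokine, had −2.56 in Lyve1-high cells (39 and 37 UMIs) and 3.45 in Lyve1-low cells (377 and 1 UMIs), with 58.1% of the Flcn iΔEC Lyve1-low counts in 1 cell. Cd79a, a B cell receptor component, had −1.22 in Lyve1-high cells (79 and 29 UMIs) and 2.39 in Lyve1-low cells (180 and 1 UMIs), and its 29 UMIs in the control members lay in the 1 cell that the doublet caller marked.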

How the results depend on the processing

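No paired analysis was possible because each group is 1 library, and for the same reason leaving out a replicate had no meaning here. The alternatives with each gene's richest cell left out, members thinned after the rule, and cells with leukocyte UMIs or with a Madcam1 UMI left out were chosen after seeing the data. Of 168 comparisons of a main result with an alternative, 131 stayed within the limits set and 37 moved. None of these could be labelled reversed, because that label was kept for log2 ratios and list medians at least 2-fold in size. A direction no longer shared by the libraries was not labelled reversed either. Among the other values 1 reversed, the capillary list median, at 0.073 without cells that held Madcam1. Without those cells Fbln2 and Timp2 stood at log2 ratios of 0.96 and 0.95. The cause of these moves was not tested.

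Genes higher in the Flcn iΔEC members were 266, and 161 with cells thinned to 10000 UMIs before the rule, 413 at a minimum of 20 counts, 533 at 1 count, 424 without each gene's richest cell and 167 with members thinned after the rule. Genes lower were 489, and in the same order 160, 1064, 4712, 260 and 224, and 287 with the median ratio set to 1. The added count weighs more in the control sum of 506890 UMIs than in the Flcn iΔEC sum of 3142005. A gene with 1 UMI in the Flcn iΔEC members and none in the control members is therefore called at least 2-fold lower. The 4712 genes at a minimum of 1 count are thus not a measure of lower levels. Lyve1-high over Lyve1-low gave 12 genes higher, and 23 with at least 3 of 6 lymphatic genes, 4 with cells thinned before the rule, 43 at 20 counts, 182 at 1 count and 5 with members thinned after it. It gave 21 lower, and in the same order 72, 5, 38, 266 and 6, with 9 at 5 of 6 lymphatic genes, 9 without the richest cell 8 without cells with leukocyte UMIs and 13 without cells with Madcam1. The all-gene median of −0.19 was −0.48 at 1 count, and the MiT/TFE target median of 0.88 was 1.09 with members thinned after the rule.

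Thinning before the rule left 90 Flcn iΔEC members and 5.26% of cells over the proliferation limit instead of 12.7%, which was 27.8% for any UMI of Mki67 and Top2a. With at least 8 Lyve1 UMIs, members were 28.0% of the Flcn iΔEC lymphatic gate instead of 33.5%. Shares with a UMI moved with depth. At 2000 UMIs and without thinning, Gdf15 was found in 62.7% and 94.5% of Flcn iΔEC members, Prox1 in 44.5% and 100%, and Prox1 in 73.1% and 100% of control members.

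Of 50 named genes past 2-fold between the libraries 10 fell below it under at least 1 alternative, and of 15 past 2-fold between Lyve1-high and Lyve1-low cells 10 did. Ackr3 moved from a log2 ratio of 1.34 to 0.41, Sema3a from 1.51 to 0.82, Igf1 from −2.45 to −1.59 and Fibin from −3.31 to −2.07 with cells thinned before the rule, and Mest to −0.68. The others between the libraries were Ctsa, Ctsd, Eln, Fbln2, Mrc1, Nrp2 and Timp2, whose log2 ratios stayed at 0.83 or more in size except for Eln. Between Lyve1-high and Lyve1-low cells the smaller log2 ratio reached 0.36 for Cd36, −0.59 for Mfap2 and −0.69 for Stmn1 with thinned cells, 0.72 for Mest, −0.72 for Plat and −0.98 for Gdf10 with at least 3 of 6 lymphatic genes, −0.75 for Cd24a at a mitochondrial limit of 5%, and 1.0 for Ctsd without its richest cell. That of Cd74 was 0.36 with thinned cells, and with at least 3 of 6 lymphatic genes its direction was not shared. For Slc41a1 and Igfbp7 the direction of Lyve1-high over Lyve1-low was no longer shared by the libraries at a mitochondrial limit of 5% (Slc41a1) and with at least 3 of 6 lymphatic genes or thinned cells (Igfbp7). The MiT/TFE target genes at least 2-fold higher numbered 9 to 16 over the alternatives. The 26 control members with 506890 UMIs limit every ratio, most of all for genes near 0 there.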

Other observations

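Immediate early genes, which respond within minutes to stimulation and to cell handling, were lower in the Flcn iΔEC members as a list. Of 12 genes, 4 were at least 2-fold lower and 0 higher, beside 6.74% and 3.67% of all genes. The median log2 ratio was −0.77 beside −0.19 for all genes. Fos had 222 CPM in the Flcn iΔEC and 767 CPM in the control members, a ratio of 0.289 (0.255 to 0.329), and 1 control cell held 31.9% of its counts. Summed over the list, the members had 3430 CPM (Flcn iΔEC) and 5350 CPM (control), but the medians of single members were close, at 2314 and 2645 CPM, and without cells that held Madcam1 the median log2 ratio was −0.51. Fosb stood at 0.269 (0.226 to 0.320), Zfp36 at 0.411 (0.299 to 0.572) and Atf3 at 0.446 (0.330 to 0.610), while Jund stood at 1.0 (0.913 to 1.10). In leukocytes the ratio of Fos was 0.861 and that of Fosb 0.742.

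Of 14 interferon and MHC class I genes compared, 1 was at least 2-fold higher and none lower, with a median log2 ratio of 0.04. That gene was B2m, the class I light chain, at 1749 CPM in the Flcn iΔEC and 675 CPM in the control members, a ratio of 2.59 (2.32 to 2.90). H2-K1 and H2-D1, class I heavy chains, had ratios of 1.55 (1.38 to 1.74) and 1.58 (1.43 to 1.74) in the members and 5.48 and 4.31 in Lyve1-low cells.

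Of 14 cell cycle genes outside the rule that could be compared, Ccnd2, cyclin D2, was lower at 57.0 and 178 CPM and none was at least 2-fold higher, with a median of 0.21. No glycolysis gene of 11 was past 2-fold, with a median of 0.19, and Gapdh stood at 1.77 (1.57 to 2.0). Of 10 heat shock genes, Hspa1a and Hspa1b were higher, Hsph1 lower at 0.459 (0.324 to 0.660), and the median was 0.17. Of 8 venous and blood endothelial genes compared, Flt1 and Vwf (77 and 2 UMIs) were higher, none was lower and the median was 0.31, or −0.06 without cells that held Madcam1. Of 7 arterial genes compared, Hey1 was higher at 2.52 (1.33 to 5.35), Efnb2 was lower and the median was −0.33.

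The lymph node sinus genes summed to 225 CPM in the control and 109 CPM in the Flcn iΔEC members, with Marco and Ackr4 at 0 UMIs in both. The rule allowed at most 1 UMI of Marco, Ackr4 and Stab2 together, so their low counts were set by the selection and are not a finding. The erythroid genes summed to 39.5 and 43.3 CPM. Of 9 folliculin and MiT/TFE genes compared, 1 was higher, none lower, and the median was 0.33. Igfbp5, a binding protein of insulin-like growth factors chosen after its values were seen, had 295 UMIs in the Flcn iΔEC members, of which 50.8% were in 1 cell.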
